A study of Homo sapiens with 68 samples.

Results

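RBFOX2 was immunoprecipitated from HEK293T, an established line of human embryonic kidney origin, without ultraviolet crosslinking and with gel purification of the complexes. This group, noUV_RBFOX2, holds 2 of the 68 libraries of a TLC-CLIP series, in which RNA fragments that copurify with 1 protein are sequenced. The members were chosen by their titles, and they were compared with the 2 libraries of RBFOX2_50k_lowRNase, which were crosslinked. Both groups had 50000 cells, 0.005 U of RNase, the RBM9 antibody of Bethyl Laboratories and PAGE (a polyacrylamide gel from which the complexes are cut). The protocol text is the same for every library and describes UV exposure, so the omission of UV is taken from the titles and the series design. Other RBFOX2 groups were used as further lists: RBFOX2_10k (10000 cells, 0.001 U RNase) and RBFOX2_1k (1000 cells, 0.0001 U RNase), both crosslinked, and noUV_noPAGE_RBFOX2, which had neither UV nor the gel. The gel-purified libraries without UV of 3 other antibodies (hnRNPA1, hnRNPc and hnRNPI) showed what copurified with antibodies against other proteins. They had the same cell number and RNase. The libraries of these antibodies with neither UV nor the gel were not used. Statements on other antibodies without UV therefore refer to the gel-purified lists. Whether sites shared with those lists are unspecific was not tested. The question that the comparison addresses is which genes and sites stay listed when the protein is not crosslinked to its RNA. Peak lists of 1 protein are not expression levels, so the labelled cell line could not be checked against marker genes.

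RBFOX2 is an RNA-binding protein of the RBFOX family. It recognises the motif GCAUG through a single RNA recognition motif, binds mostly in introns next to alternative exons, and regulates their splicing in the nucleus. UV light forms covalent bonds between a protein and the bases it touches. Those bonds let a CLIP protocol wash away RNA that is held more loosely, and a library made without UV shows which fragments pass the washes and the gel without such a bond.

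The lists without UV were much shorter. Peaks less than 30 nt apart were joined into sites, and noUV_RBFOX2 held 25275 sites in replicate 1 and 18787 in replicate 2, against 226550 and 182557 with crosslinking. The mean log2 number of sites was 3.22 lower, a difference in a design whose smallest exact two-sided permutation p is 0.333. Median site width was 60 and 63 nt without UV and 63 and 64 nt with it (exact permutation p = 0.667). When each list was cut to the 18787 sites with the smallest p, the mean of the median widths was 62.5 nt without UV and 110.5 nt with it (exact permutation p = 0.333). The read numbers of the listed sites summed to 343524 and 269286 without UV and to 4194095 and 3218042 with it. The number of sequenced reads is unknown, and a site below the calling threshold is missing from a list. The smallest read number listed without UV was 5, which is 14.6 and 18.6 reads per 1000000 listed reads (RPM, the scale used for levels here) in the 2 libraries. RBFOX2_1k, with 332808 and 481362 listed reads, is the crosslinked group nearest to noUV_RBFOX2 in this total, and its values are given beside the main results. It held 37450 and 53533 sites, with a median width of 69 nt in both libraries. The accessions of the libraries without UV, and of those with 10k and 1k cells, are not contiguous with those of the 50k libraries. If this marks a batch of preparation, batch and omission of UV cannot be told apart in the main comparison. RBFOX2_10k and RBFOX2_1k differ from noUV_RBFOX2 in cell number and RNase as well as in UV. Comparisons with them therefore do not isolate the omission of UV either. Nothing in the labels says that replicates came from separate cultures, so the spread between them may be technical.

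Few crosslinked sites were listed again without UV. A reference site is a site of RBFOX2_50k_lowRNase replicate 1 that overlapped a site of replicate 2 by at least 1 nt on the same strand, and there were 96546. Replicates 1 and 2 of noUV_RBFOX2 overlapped 7.05% and 5.65% of them, a mean of 6.35% ± 0.993 (SD, n = 2). With each list cut to the same length of 18787 sites the share was 22.2%. When the reference sites were moved by 1000 nt, 2.75% and 2.05% were overlapped. RBFOX2_1k overlapped 16.9% and 21.6% of the same sites and RBFOX2_10k 53.5% and 55.7%. Without the gel, noUV_noPAGE_RBFOX2 overlapped 11.1% and 12.9%, with 45933 and 52826 sites in its lists. In all, 3069 reference sites (3.18%) were listed in both libraries without UV, 6126 in 1 of them and 87351 in neither.

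The share that stayed rose with the read number of the site under crosslinking. Of the 35995 sites with 6 to 10 crosslinked reads (the lower of the 2 libraries), 0.489% were listed in both libraries without UV and 97.4% in neither. Of the 17647 sites with 21 to 50 reads, 4.63% were listed in both, and of the 2032 sites with 101 to 200 reads, 24.8%. The share was 54.0% of the 691 sites with 201 to 500 reads and 89.8% of the 59 sites with more than 1000. The RBFOX2_1k libraries listed more of the sites at each of these levels. Both of them listed 16.2% of the sites with 21 to 50 reads, 62.7% of those with 101 to 200 and 93.2% of those with more than 1000. Among the 100 reference sites with the most reads, 87 were listed in both libraries without UV and 5 in neither, and both RBFOX2_1k libraries listed 94. Among the top 1000, the counts were 567 in both, 197 in neither and 860 in both RBFOX2_1k libraries.

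**Figure D1:**
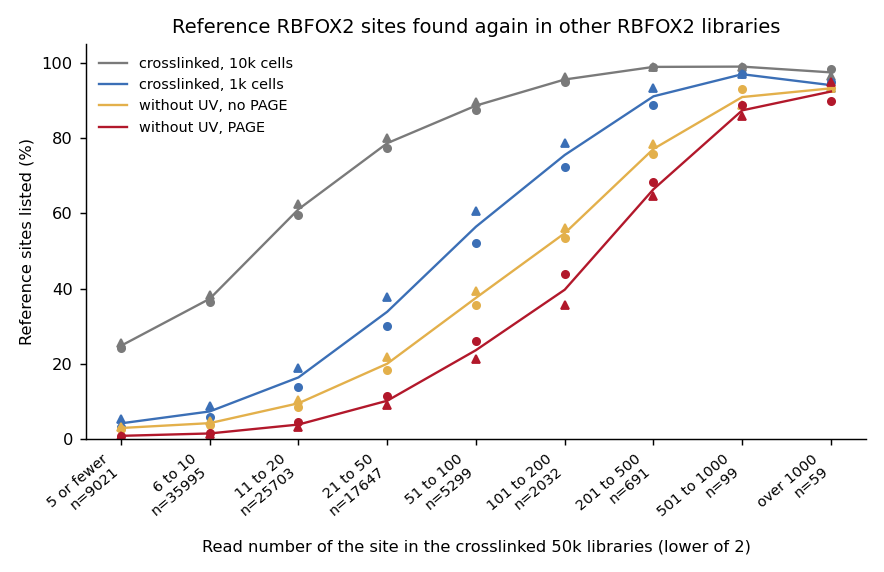
Percent of the 96546 reference sites listed in each of 4 other RBFOX2 groups (vertical axis), by the read number of the site in the crosslinked 50k libraries (horizontal axis). Circles are replicate 1, triangles replicate 2 and lines the mean of 2. The means of the groups without UV lie below those of the crosslinked groups in each step up to 500 reads, and above 1000 reads every library shown lists at least 89.8% of the 59 sites.

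At each read number up to 500, the sites listed in both libraries without UV were more often also listed by another antibody without UV than those in neither. At 21 to 50 crosslinked reads this held for 72.8% of the 817 sites that stayed and for 33.6% of the 14844 that were in neither list. At 101 to 200 reads it held for 73.2% of 503 and 39.0% of 920. Over all reference sites the shares were 72.7%, 52.8% and 29.1% for sites listed in both, in 1 and in neither library without UV. Above 500 and up to 1000 reads the shares were 85.2% of 81 and 85.7% of 7. The crosslinked libraries of the same 3 antibodies listed 63.3% of the sites that stayed and 62.6% of those in neither list at 21 to 50 reads, 85.3% and 73.2% at 101 to 200 reads, and 71.2% and 54.4% over all reference sites. The sites are not independent, since many lie in 1 gene, and these shares carry no test. RBFOX2_1k and noUV_RBFOX2 listed partly different sites: of the 3069 that stayed without UV, 872 (28.4%) were in neither RBFOX2_1k list, while 5646 sites in both RBFOX2_1k lists were in neither list without UV.

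The 8 strongest sites that stayed, 1 per gene, were each also listed without UV by all 3 other antibodies, in at least 1 library of each. All coordinates are those of the lists, in hg19. The reference site with the most reads was chr11:62609119-62609282 on the minus strand, with 5461 and 5198 RPM crosslinked. It stood at 24645 and 42854 RPM without UV, at 12473 and 12155 RPM in RBFOX2_1k, and was listed by both libraries of all 3 other antibodies without UV. The 2 groups did not overlap at this site, and the level without UV was 6.33 times the crosslinked one in the mean. A site at chr10:103124632-103124701 on the minus strand had 2825 and 3297 RPM crosslinked and 3124 and 5166 RPM without UV, so the groups overlapped there. Sites at chrM:1604-1776 and chrM:2354-2453 on the plus strand stood 7.86 and 7.77 times higher without UV. Others stayed at a lower level. The site at chr1:109642855-109643014, plus strand, went from 1833 and 1966 RPM crosslinked to 236 and 212 RPM without UV, 0.118 of the crosslinked level. The site at chr7:98479321-98479509, plus strand, went from 942 and 1103 RPM to 221 and 238 RPM. Of the 495 nuclear sites that had over 200 crosslinked reads and stayed in both libraries, 214 had a higher mean RPM without UV, and the median ratio was 0.824 (quartiles 0.490 and 1.72). The 12 mitochondrial sites of that strength all had a higher mean without UV, with a median ratio of 10.9. Members of these sets were chosen by their crosslinked read number and by being listed, so the ratios are a description.

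The strongest sites that were lost without UV were still listed by RBFOX2_1k. The lost site with the most reads was chrX:73072484-73072541 on the minus strand. It had 443 and 401 RPM crosslinked and 376 and 384 RPM in RBFOX2_1k, was listed in neither library without UV, and stood at a mean of 873 RPM in the noUV_hnRNPc libraries. The site at chr11:65272083-65272143, plus strand, had 243 and 472 RPM crosslinked and 763 and 727 RPM in RBFOX2_1k. The site at chr20:2636855-2637018, plus strand, had 146 and 184 RPM crosslinked and 195 and 168 RPM in RBFOX2_1k. None of the libraries without UV used here listed it, with the gel for any of the 4 antibodies or without it for RBFOX2. The site at chr7:99951112-99951523, plus strand, had 182 and 237 RPM crosslinked and was in neither noUV_RBFOX2 library. Both noUV_noPAGE_RBFOX2 libraries listed it at a mean of 58.6 RPM. With the gel, both noUV_hnRNPI libraries listed it at a mean of 107 RPM, and 1 noUV_hnRNPc library listed it. All 8 lost sites of the naming rule were listed in both RBFOX2_1k and both RBFOX2_10k libraries. The lost site on the X chromosome shares its gene ID with a site that stayed, chrX:73071190-73071825, which had 1195 and 1440 RPM crosslinked and 882 and 917 RPM without UV. A further site of that gene ID, chrX:73046001-73046066 on the minus strand, was listed without UV at 259 and 349 RPM and in neither RBFOX2_50k_lowRNase library. RBFOX2_1k replicate 2 listed it at 108 RPM, and the crosslinked 50k libraries of hnRNPA1 and hnRNPc listed it at means of 234 and 817 RPM. The same gene ID thus held a site that stayed, a lost site and a site without UV that the RBFOX2_50k_lowRNase lists lack.

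Seen from the lists without UV, 46.2% of the sites were also listed with crosslinking. In replicates 1 and 2, 45.2% and 47.2% of the sites overlapped a site of either crosslinked 50k library (SD 1.41, n = 2), against 19.3% and 19.5% after moving them by 1000 nt. With lists of equal length the share was 24.5%. RBFOX2_1k listed 23.3% and 26.1% of the sites without UV. The 2 lists without UV shared 5800 sites, counted in replicate 1. Of these, 67.3% were crosslinked sites, and 67.6% were listed without UV by at least 1 of the 3 other antibodies. The classes were 2726 sites in both categories, 1176 that were crosslinked sites but were listed by no other antibody without UV, 1194 listed by another antibody without UV but not crosslinked, and 704 in neither. By list, 54.4% of the shared sites were in noUV_hnRNPc, 46.6% in noUV_hnRNPA1 and 23.7% in noUV_hnRNPI. Those lists differ in length, from 12558 sites in noUV_hnRNPI replicate 1 to 273330 in noUV_hnRNPc replicate 2, so the order of the shares is not an order of likeness. The noUV_noPAGE_RBFOX2 libraries listed 86.5% of the shared sites and RBFOX2_1k 44.0%.

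The stronger a site was without UV, the more widely it was shared. Of the 866 shared sites with 5 reads or fewer (the lower of the 2 libraries without UV), 54.2% were crosslinked sites and 3.70% were listed without UV by all 3 other antibodies. Of the 133 sites with more than 100 reads, 97.0% were crosslinked sites and 82.0% were listed by all 3. Of those 133 sites, 5 were crosslinked sites that no other antibody listed without UV, and 4 were not crosslinked sites.

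Centres of sites without UV lay near crosslinked centres more often than moved ones did. Of the 5800 shared sites, 45.5% had their centre within 50 nt of the nearest centre in crosslinked replicate 1 and 19.3% within 10 nt. After moving them by 1000 nt, 11.8% were within 50 nt. The median distance was 64 nt, about the median site width of 65 nt, and overlap itself brings centres near each other.

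**Figure D2:**
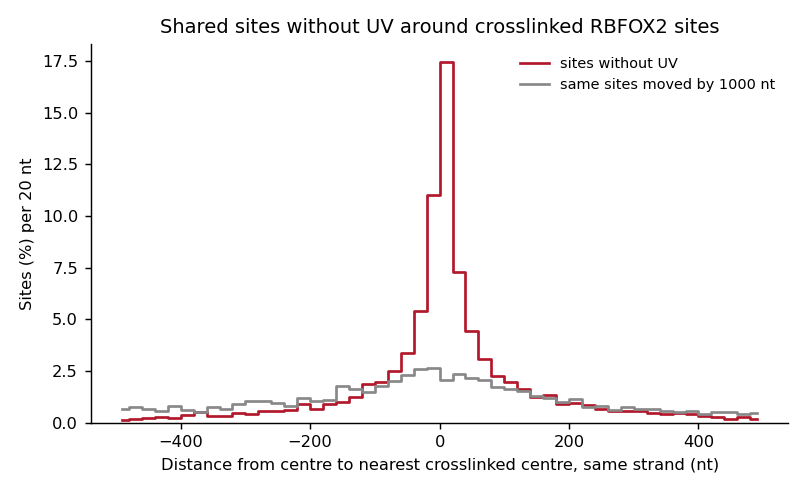
Distance in nt from the centre of each of the 5800 shared sites without UV to the nearest site centre of RBFOX2_50k_lowRNase replicate 1 on the same strand, in steps of 20 nt (horizontal axis), as percent of sites (vertical axis). Positive values lie downstream in the direction of the strand. The red line peaks at the centre, and the grey line, the same sites moved by 1000 nt, stays below 3% throughout.

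The 1176 crosslinked sites that no gel-purified list without UV of another antibody held included some with higher levels than under crosslinking. The one with the most reads in the lower of the 2 libraries without UV was chr17:80808056-80808377 on the plus strand, at 466 and 572 RPM without UV against 46.3 and 35.1 RPM crosslinked and 66.1 and 81.0 RPM in RBFOX2_1k. At chr2:10476014-10476401, plus strand, the levels were 608 and 538 RPM without UV and 119 and 115 RPM crosslinked. At chrX:73494645-73494819, minus strand, they were 466 and 505 RPM against 83.7 and 86.1 RPM. At chr7:4756678-4756983, plus strand, they were closer, 320 and 249 RPM against 184 and 190 RPM. At these 4 sites both libraries without UV stood above both crosslinked ones. All 4 were also listed in both noUV_noPAGE_RBFOX2 libraries. They were chosen by their read number without UV, so their direction is a description.

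Some sites were listed without UV and in neither crosslinked 50k library. The strongest was a 30 nt site at chrM:2632-2661, plus strand, with 6780 and 7204 RPM. Both noUV_hnRNPc libraries listed it at a mean of 6527 RPM and both noUV_noPAGE_RBFOX2 libraries at a mean of 12501 RPM. It was also in 1 noUV_hnRNPI library. The next was a 28 nt site at chr6:4494189-4494216, plus strand, with 638 and 1352 RPM. It was in no gel-purified list without UV of the other antibodies and in no RBFOX2_10k or RBFOX2_1k list. Both noUV_noPAGE_RBFOX2 libraries held it at a mean of 89.5 RPM. A site at chr6:26157124-26157190, plus strand, had 413 and 579 RPM without UV and was listed in RBFOX2_1k replicate 1 at 48.1 RPM. Both noUV_hnRNPA1 libraries listed it at a mean of 119 RPM and both noUV_hnRNPc libraries at a mean of 45.9 RPM. It was also in 1 noUV_hnRNPI library. A site at chr2:232321343-232321423, minus strand, had 279 and 364 RPM without UV. It was listed in both noUV_hnRNPA1 libraries at a mean of 216 RPM, and in both RBFOX2_10k libraries at 31.7 and 39.5 RPM. Both noUV_hnRNPc libraries and 1 noUV_hnRNPI library also held this site.

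Genes were kept far more often than sites. A gene is listed where any site in it is, and 13583 gene IDs were listed in both crosslinked 50k libraries. Of these, noUV_RBFOX2 listed 47.6% and 43.0%, a mean of 45.3% ± 3.24 (SD, n = 2), and with lists of equal length the share was 69.2%. RBFOX2_1k listed 67.9% and 75.3%, and noUV_noPAGE_RBFOX2 63.2% and 68.1%. There were 4554 genes in both libraries without UV, 3206 in 1 and 5823 in neither. The genes in both had a median crosslinked level of 97.5 RPM and those in neither 8.39 RPM, and they held a median of 16.5 and 4.5 crosslinked sites. Among genes at 20 to 50 RPM crosslinked, 27.3% were in both lists without UV and 72.8% in both RBFOX2_1k lists. At 100 to 200 RPM the shares were 74.1% and 98.1%, and above 1000 RPM all 53 genes were in both lists of either group. In the other direction, 26 of the 4617 genes in both lists without UV were in neither crosslinked 50k list.

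The site that carried most reads in a gene often differed between the groups, and nearly as often between the 2 libraries without UV. In the 4554 genes listed in all 4 libraries, the strongest site of crosslinked replicate 1 overlapped the strongest of replicate 2 in 66.9% of genes. The strongest sites of the 2 libraries without UV overlapped in 26.5%, and each library without UV overlapped each crosslinked one in 22.0% to 23.2%. In the 3979 of these genes that both RBFOX2_1k libraries listed, their strongest sites overlapped those of crosslinked replicate 1 in 37.9% and 39.6% of genes, against 20.1% and 21.0% for the libraries without UV.

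Levels per gene were then compared by limma on log2(RPM + 10), two-sided, for 7158 genes with a mean of at least 20 RPM over the 4 libraries that both libraries of a group listed. Without UV, 751 genes were higher (10.5% of those tested) and 2028 lower (28.3%), with adjusted p below 0.05 (Benjamini-Hochberg). The median difference over all genes tested was −1.14 on this scale. A gene listed in 1 group alone had to differ, and 808 of the lower genes were listed at 0 in both libraries without UV. Of the 4554 genes listed in all 4 libraries, 4429 passed the filter, and of these 720 were higher (16.3%) and 917 lower (20.7%). Centring each library on its median gave 1404 higher and 1113 lower genes of 7158. The counts depended on single libraries. Leaving out a library without UV gave 1434 or 1489 higher and 4972 or 4874 lower genes (without replicate 1 or 2). Leaving out a crosslinked one gave 45 or 53 higher and 389 or 419 lower, since the spread then came from the 2 libraries without UV. With RBFOX2_1k as the crosslinked group, limma called 591 of 6919 genes higher (8.54%) and 1539 lower (22.2%), a comparison that shares the libraries without UV.

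**Figure D3:**
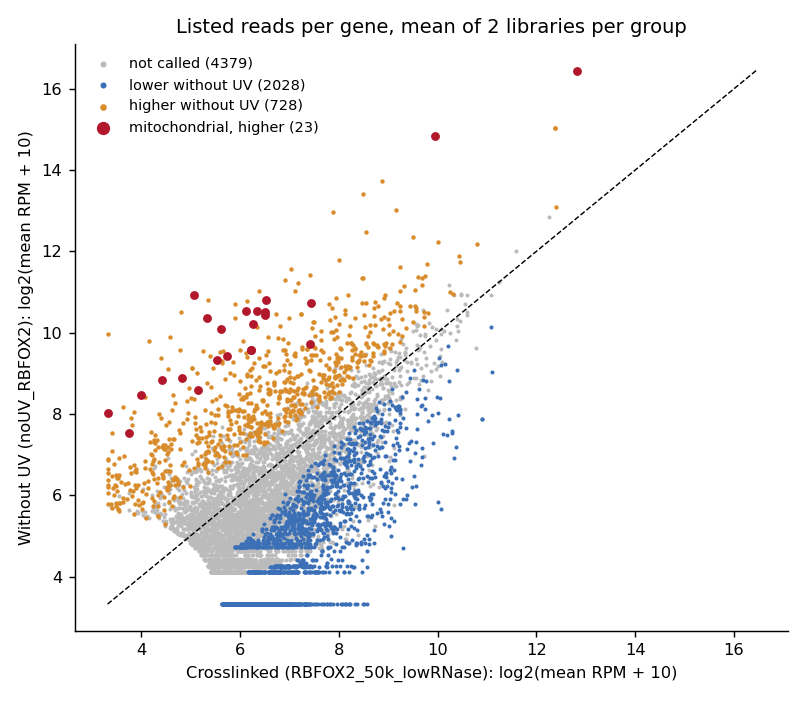
Mean level per gene without UV (vertical axis) against the mean crosslinked level (horizontal axis), both as log2(mean RPM + 10), for the 7158 genes tested. Colours give the limma calls, and the dashed line marks equal levels. The 23 mitochondrial genes lie above the line, and the row of points at the bottom holds the genes listed at 0 in both libraries without UV.

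On the log2(RPM + 10) scale, which holds down the rise of genes near 0, the gene with the largest rise among those listed in all 4 libraries was ENSG00000210049.1, at chrM:581-649. It had 1776 and 2091 RPM without UV against 19.1 and 28.0 RPM crosslinked, and 102 and 45.7 RPM in RBFOX2_1k. The groups did not overlap, and the difference was 5.87 ± 0.204 (SE) on the log2 scale (limma, adjusted p = 0.00216). ENSG00000260239.1, which holds the 28 nt site on chromosome 6 given above, had 638 and 1352 RPM without UV and was listed at 0 in both crosslinked libraries. It was listed in 1 group alone and so had to differ, and neither a fold nor a p-value is given.

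The genes lost at the highest crosslinked level held many sites spread over long stretches. The 10 with the highest crosslinked mean that neither library without UV listed stood between 255 and 385 RPM in the crosslinked libraries, with 88 to 130 sites each and a median listed stretch of 313028 nt. All 10 were listed in both RBFOX2_1k libraries. ENSG00000188312.9, at chr9:95087935-95382670, had 385 and 356 RPM crosslinked and 328 and 324 RPM in RBFOX2_1k, and was listed at 0 in both libraries without UV. ENSG00000156052.6, at chr9:80331872-80646355, had 355 and 350 RPM crosslinked and 165 and 206 RPM in RBFOX2_1k, and was also listed at 0 without UV. These genes were chosen for being listed in neither library without UV, so they had to differ and no p-value is given. Both genes were listed without UV by the hnRNPA1 antibody, at 498 and 497 RPM for the first and 249 and 267 RPM for the second. Both noUV_hnRNPc libraries listed them, at 687 and 648 RPM for the first and 348 and 394 RPM for the second. Both noUV_hnRNPI libraries also did, at 143 and 164 RPM for the first and 237 and 102 RPM for the second. The noUV_hnRNPI lists hold 139493 and 225624 listed reads, fewer than the 343524 and 269286 of noUV_RBFOX2. A gene whose reads are spread over many sites can fall below the calling threshold at each of them, and its part in these losses was not tested.

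Higher and lower genes differed in the stretch of the genome that their listed sites covered. The stretch runs from the first to the last peak of the gene ID over the 24 lists used, and is not an annotated gene length. In the 4429 genes that were tested and listed in all 4 libraries, 131 of the 212 genes with a stretch under 300 nt were higher (61.8%) and 4 lower, against 16.3% and 20.7% of all such genes. Of the 47 genes with 300 to 1000 nt, 33 were higher. Of the 844 genes over 100000 nt, 61 were higher (7.23%) and 357 lower (42.3%). The median difference fell from 1.60 under 300 nt to −1.17 over 100000 nt on the log2 scale. With RBFOX2_1k as the crosslinked group, of the genes listed in all 4 of those libraries, 49 of 77 under 300 nt were higher and 234 of 821 over 100000 nt lower, against 9.63% higher and 11.8% lower of 3946. The median number of crosslinked sites moved with the calls, at 8 for the higher and 36.5 for the lower genes listed in all 4 libraries, and its part in them was not tested.

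**Figure D4:**
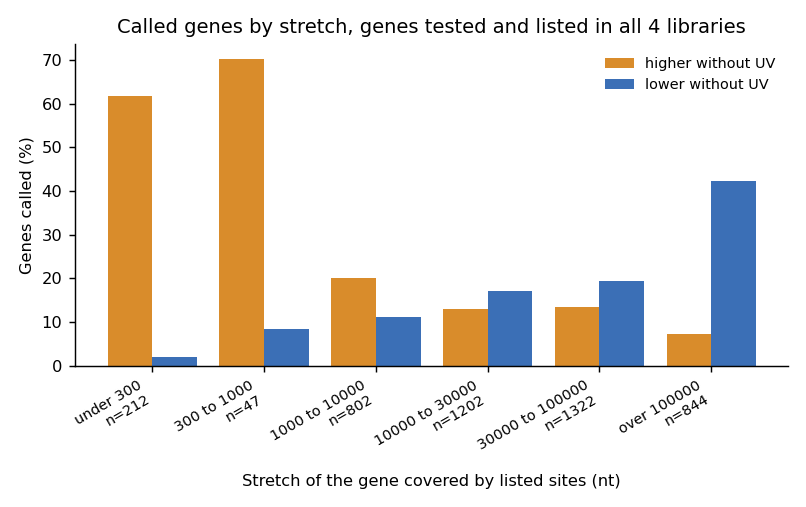
Percent of genes that limma called higher (orange) or lower (blue) without UV (vertical axis), by the stretch in nt that the listed sites of the gene cover (horizontal axis), among the 4429 genes tested and listed in all 4 libraries. The share of higher genes is above 60% for stretches under 1000 nt and 7.23% over 100000 nt, where the share of lower genes is 42.3%.

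RNA of the mitochondrial chromosome took a larger part of the reads without UV. It held 12.6% and 15.2% of the listed reads in noUV_RBFOX2 and 0.815% and 1.06% in RBFOX2_50k_lowRNase. The mean difference was 12.9 percentage points, and the groups did not overlap (exact two-sided permutation p = 0.333, the smallest possible). The share was 3.06% and 2.21% in RBFOX2_1k, 2.28% and 1.78% in RBFOX2_10k and 9.42% and 11.7% in noUV_noPAGE_RBFOX2. It was 4.65% and 4.87% in RBFOX2_50k_noPAGE, which was crosslinked and not gel purified. The 6 libraries without UV of the other antibodies held between 4.12% and 13.8%, a range that includes both RBFOX2_50k_noPAGE libraries, and of their 6 crosslinked libraries with the gel 5 held between 0.259% and 1.67%. The sixth, hnRNPc_50k_lowRNase replicate 1, held 11.9% of 36106 listed reads, in a list of 2921 sites.

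**Figure D5:**
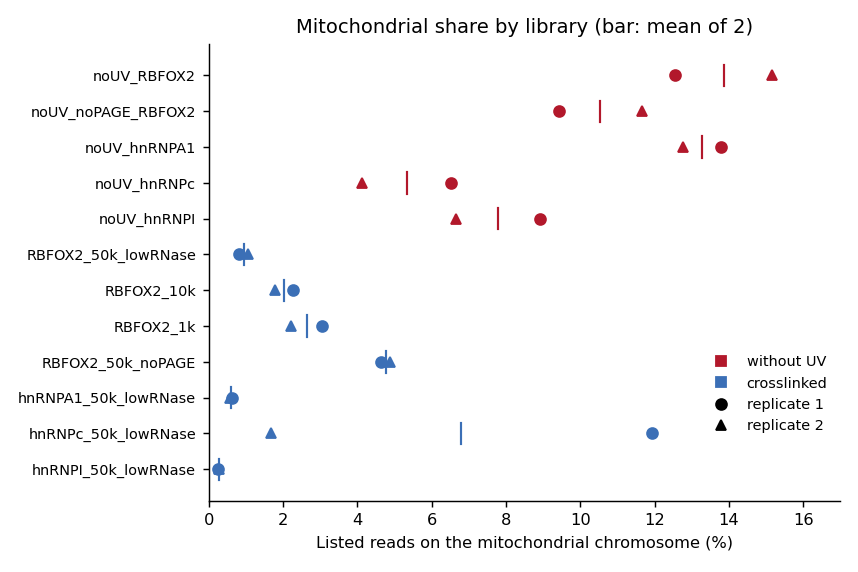
Percent of listed reads on the mitochondrial chromosome (horizontal axis) in 24 libraries of 12 groups (vertical axis). Circles are replicate 1, triangles replicate 2 and bars the mean of 2. Both noUV_RBFOX2 libraries stand above 12% and both RBFOX2_50k_lowRNase libraries near 1%.

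All 23 mitochondrial gene IDs that were tested were higher without UV by limma, against 10.5% of all genes tested. Of the 23, 21 were listed in all 4 libraries, and 1 was listed at 0 in both crosslinked libraries and so had to differ. Among all genes tested and listed in all 4 libraries, 16.3% were higher. In at least 1 of the 4 libraries, 28 mitochondrial gene IDs were listed. With no filter on low values, 26 of these 28 had a positive difference and 23 were called higher. The differences of the 23 tested genes ran from 2.31 to 5.87 on the log2 scale with a median of 4.00. Under the other scalings, 23 were higher with median centring and 22 with quantile normalization. Without crosslinked replicate 1 or 2, 13 and 14 of the 23 were called, and all 23 differences were positive in both. With RBFOX2_1k as the crosslinked group, 23 of 23 were higher (median 2.99), against 8.54% of genes. A pair of genes held most of the mitochondrial reads in either group. The gene at chrM:1673-3203 stood at 79485 and 98876 RPM without UV and 6301 and 8216 RPM crosslinked. The gene at chrM:651-1560 stood at 26880 and 31959 RPM without UV and 814 and 1147 RPM crosslinked. Together they held 84.5% and 85.9% of the mitochondrial gene reads without UV and 87.2% and 88.4% with crosslinking, so this pair made up most of the mitochondrial reads in both groups. Most mitochondrial reads lay on the plus strand, 97.8% and 97.5% without UV and 95.7% and 96.0% crosslinked.

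The reads without UV were concentrated in few sites. The 10 sites with the most reads held 12.5% and 17.8% of the listed reads in noUV_RBFOX2, 1.90% and 2.05% in RBFOX2_50k_lowRNase and 4.48% and 3.63% in RBFOX2_1k. Such shares were not particular to libraries without UV. Crosslinked RBFOX2_50k_noPAGE held 10.2% and 10.1%, and crosslinked hnRNPc_50k_lowRNase replicate 1 held 14.7%. Without UV, the share was 12.2% and 15.1% in noUV_noPAGE_RBFOX2, 12.7% and 12.6% in noUV_hnRNPA1, 9.67% and 6.75% in noUV_hnRNPI, and 5.25% and 3.63% in noUV_hnRNPc. Outside the mitochondrial chromosome, the highest gene levels without UV were at chr11:62609123-62609282, where 2 overlapping gene IDs list the same site and neither can be given the reads alone. Next came the gene at chr14:50329498-50329568, with 11618 and 15764 RPM without UV against 346 and 576 RPM crosslinked, and the gene at chr14:50053297-50053596, with 9012 and 12834 RPM against 292 and 404 RPM. A pair of overlapping gene IDs on chromosome 1 differed more between the libraries without UV: the ID at chr1:76251940-76260575 had 10561 and 6020 RPM there, against 570 and 549 RPM crosslinked. For other genes that were high without UV the groups lay closer together, without overlapping. The gene at chrX:73041000-73072550 had 8785 and 8727 RPM without UV and 5512 and 5258 RPM crosslinked. In RBFOX2_1k it had 8612 and 8937 RPM, so it was not higher without UV than in that crosslinked group. The gene at chr11:65266513-65273500 had 6765 and 7925 RPM without UV against 4807 and 4938 RPM crosslinked and 14723 and 11322 RPM in RBFOX2_1k.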

How the data were processed

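Each library has 1 deposited peak list with 8 columns and no header. CLIPper is given as the caller by the file names. STAR 2.7.3a, UMI-tools 1.0.1, bcl2fastq and hg19 are given per the submitters' processing notes. Each list deposited by the authors holds positions, a p-value for each peak and a peak name with a gene ID and a last number, a score whose meaning is not stated. It was taken here for a peak's read number. Scores are not counts of genes, so no count model was used. Peaks less than 30 nt apart on a strand were joined, with the highest read number kept, and reads were scaled to 1000000 listed reads (RPM). Of the 68 lists, 24 were used.

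Genes were tested with limma 3.58.1 in R 4.3.3 (lmFit, eBayes with trend) on log2(RPM + 10), for genes with a mean of at least 20 RPM, listed in both libraries of a group. On simulated data for this comparison (6626 genes tested), 17 of 50 genes changed 4-fold and 40 of 50 changed 8-fold were called, and 5 of 6451 unchanged genes. The simulated counts had the same spread setting for every gene and library and no calling of single sites. These rates may therefore not hold for the real lists. Sites were compared as values, without a test. In the 4 libraries compared, 6.18% to 7.08% of peaks are listed under 2 gene IDs, and their reads count for both.

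The members and lists were chosen with earlier results of these data known. Named genes were the 10 highest without UV, the 10 largest rises and falls among called genes and the 10 strongest lost genes. Named sites were the 8 strongest, 1 per gene, of each of the following sets. They were sites that stayed, sites that were lost, and crosslinked sites that no other antibody listed without UV. The last set held sites listed without UV and in neither RBFOX2_50k_lowRNase library, some of them in other crosslinked lists. No gene symbols were paired with the IDs (0 matched), so planned gene lists were reduced to the mitochondrial genes, and no motif search or sequence is given. The alternatives are listed in the closing section.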

Additional observations from a re-analysis of the deposited data

How the results depend on the processing

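The numbers of genes called by limma were 751 higher and 2028 lower. The higher genes numbered 1404 with median centring, 1476 with quantile normalization and 1580 with sites per 10000 in place of reads. The lower genes numbered 1113 with median centring, 6154 with no filter on low values and 773 at a filter of 100 RPM. Leaving out each library in turn gave 45 to 1489 higher and 389 to 4972 lower. The other alternatives gave 564 to 849 higher and 1496 to 3002 lower. Among them, with mitochondrial reads left out of the scaling, which was chosen after seeing the data, there were 818 and 1634. Replicate numbers did not pair the samples (r = −0.0229 between deviations of same-numbered libraries), and the replicate block gave 581 and 1883.

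The percent of crosslinked genes still listed (45.3) was 24.1 at p below 1e-05, 69.2 with lists of equal length, 71.6, 90.7 and 65.6 with RBFOX2_1k, RBFOX2_10k and noUV_noPAGE_RBFOX2 as the list searched, and 41.2 to 47.6 without each library in turn. The percent of crosslinked sites still listed (6.35) was 5.32 at p below 1e-05, 22.2 with lists of equal length, 4.71 for centres within 50 nt, 8.12 with single peaks, 2.40 after the move by 1000 nt, 19.2, 54.6 and 12.0 with the same other lists, and 3.53 to 7.05 without each library in turn. The percent of sites without UV that were crosslinked sites (46.2) was 57.0 at p below 1e-05, 24.5 with lists of equal length, 40.5 for an overlap of at least 0.5 of the shorter site, 38.9 for centres within 50 nt, 19.4 after the move by 1000 nt, and 36.9 to 47.2 without each library in turn. The mitochondrial share, the number of sites and the site width kept their direction under each alternative run, but the width difference went from −2 to −48 nt with lists of equal length. Depth is unknown, so an unlisted site can be one with too few reads to be called.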
